A study of Mus musculus with 28 samples.

Results

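Glypicans and syndecans are the main families of heparan sulfate proteoglycans of the cell surface. The 9 genes described here are the 5 glypicans Gpc1, Gpc2, Gpc3, Gpc4 and Gpc6 and the 4 syndecans Sdc1, Sdc2, Sdc3 and Sdc4, out of 50600 genes in the deposited table. They were taken by exact gene name and chosen by family with earlier results of these data known. Gpc3 had already been seen among the larger rises of MEFs with p38 inhibitor over untreated MEFs and of pre-p38i over DMSO on day 1, so those comparisons are described without a test. Other tests of Gpc3 that use the untreated MEF or DMSO day 1 libraries share values with those comparisons. The remaining glypican, Gpc5, had values of 0 to 1 in all 28 libraries and stayed outside the tests.

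The series followed RNA of wild-type mouse embryonic fibroblasts (MEFs) through reprogramming with Oct4, Klf4 and Sox2 in the chemically defined medium iCD1. The study's methods describe MEFs of embryos carrying the OG2 (Oct4-GFP) reporter, delivery of the factors by retrovirus, and SB203580 as the p38 inhibitor (p38i). There were 14 groups of 2 libraries: MEFs that the labels give as untreated, MEFs with p38i, and 3 arms sampled on days 1, 3, 5 and 7 of induction. The control arm is named ctr in the labels and DMSO here, after the study's vehicle. In the p38i arm the inhibitor was present during induction. In the pre-p38i arm it was given before induction. The factors are shared by all 3 arms and absent from the 2 MEF groups, as far as the labels say. Each library is bulk RNA, in which fewer cells of a type and less RNA per cell cannot be told apart.

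A proteoglycan of this kind is a core protein with long sulfated sugar chains of heparan sulfate. The chains hold growth factors such as FGFs, Wnts and Hedgehog proteins at the cell surface and act as co-receptors for them. Glypicans are attached to the outer membrane by a lipid (GPI) anchor and can be released when that anchor is cut. Syndecans cross the membrane, bind cytoskeletal and PDZ-domain proteins on the inner side, and are shed by metalloproteases. Gpc1 and Gpc4 are widely expressed glypicans, Gpc2 is best known from the developing nervous system, and loss of Gpc3 causes an overgrowth syndrome. Sdc1 is typical of epithelial and plasma cells, Sdc2 of mesenchymal cells, Sdc3 of nerve and muscle, and Sdc4 is a component of focal adhesions.

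Gpc3 and Sdc3 had the widest ranges of group means of the 9 genes, 41.8-fold and 33.1-fold between the highest and the lowest group, so the 250 bases before their RefSeq starts are shown, 5′ to 3′ on the strand of the gene. Capitals mark GC boxes (GGGCGG or its complement CCGCCC), a common promoter element.
Gpc3 (GRCm38.p6, chrX:52613975-52614224, minus strand): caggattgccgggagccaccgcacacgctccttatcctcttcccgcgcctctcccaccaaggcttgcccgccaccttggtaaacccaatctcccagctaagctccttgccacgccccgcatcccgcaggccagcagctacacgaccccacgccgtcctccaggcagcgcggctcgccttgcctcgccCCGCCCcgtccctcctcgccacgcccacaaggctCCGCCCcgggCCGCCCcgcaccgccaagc
Sdc3 (GRCm38.p6, chr4:130792287-130792536, plus strand): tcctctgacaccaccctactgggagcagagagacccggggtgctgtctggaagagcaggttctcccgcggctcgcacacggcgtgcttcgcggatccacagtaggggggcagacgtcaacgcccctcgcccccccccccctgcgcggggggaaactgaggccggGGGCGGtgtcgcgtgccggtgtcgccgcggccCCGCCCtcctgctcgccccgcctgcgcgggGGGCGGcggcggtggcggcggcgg
Each window held 3 GC boxes, with 71.6% G and C for Gpc3 and 76.4% for Sdc3, against a median of 52.4% over 32851 mouse promoter windows. Windows were found for 6 of the 9 members (Gpc2, Gpc3, Gpc4, Sdc1, Sdc3 and Sdc4), and each of the 6 held at least 1 GC box, which 32.7% of all windows did. None of the 6 held the AP-1 letters TGANTCA on either strand, found in 6.75% of all windows. A match of letters describes the sequence and is not a binding site.

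In the coordinates of the deposited table (GRCm38), Gpc3 (chrX:52272426-52613950) and Gpc4 (chrX:52053021-52165252) are neighbours on the minus strand of the X chromosome, 107173 bases apart. Gpc6 (chr14:116925297-117979529) lies 400117 bases beyond Gpc5. Gpc1 is on chromosome 1, Gpc2 on 5, Sdc1 on 12, Sdc2 on 15, Sdc3 on 4 and Sdc4 on 2, and all 9 are annotated as protein-coding. At 95% identity over 200 bases or more, transcripts of Gpc1, Gpc2, Sdc1 and Sdc3 matched 1 other gene each (Ankmy1, Gm43720, Gm16407 and Gm26716), and those genes had values of 0 to 2 in every library.

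The deposited values are whole numbers that sum to between 991287 and 992537 per library, as TPM values rounded down would, and are called values here. The unit is inferred from these totals and from RSEM among the submitters' tools. Levels, sums and shares of different genes below can be compared only if the values are TPM, which are per length, and they keep no sequencing depth. Every library had 12454 to 14170 genes at 1 or more. The 8 fibroblast markers summed to 7684 and 7474 in untreated MEFs, and the 6 pluripotency markers were at 0 there. Most of the fibroblast sum came from the collagens Col1a1, Col1a2 and Col3a1 in every library, so it says little of the other listed genes. On day 7 the pluripotency sum was 73 and 83 in DMSO, 8 and 10 in p38i and 134 and 128 in pre-p38i. The fibroblast sum on that day was 1387 and 1475, 1451 and 1505, and 864 and 806, in the same order. The sum of 8 macrophage markers ran from 33 to 415 over the libraries, with Lyz2, Cd68 and C1q genes in the list and Ptprc at 0 in both libraries of 7 groups. Lyz2 and Cd68 made up most of that sum. The epithelial sum (7 genes) ran from 0 to 979, the epidermal (6 genes) from 5 to 116 and the endothelial (4 genes) from 2 to 70. In induced groups most of the endothelial sum was Tek, with Pecam1 and Cdh5 at 0 to 2.

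Gpc3 had the largest span of values among the glypicans. Untreated MEFs had 21 and 19, and MEFs with p38i had 111 and 98. In the DMSO arm the pairs for days 1, 3, 5 and 7 were 10 and 7, 5 and 3, 3 and 2, and 5 and 5. In the pre-p38i arm they were 61 and 65, 13 and 14, 5 and 6, and 6 and 5 on the same days. Gpc3 was thus far higher in both groups sampled nearest to the early inhibitor treatment, and the pre-p38i pairs lay clear of DMSO through day 5 and overlapped it on day 7. In the p38i arm the pairs were 7 and 9, 4 and 2, 3 and 3, and 11 and 10, above both DMSO libraries on day 7 only. The ratio of means of MEF p38i to MEF was 5.22 (log2 difference 2.33), and that of pre-p38i to DMSO on day 1 was 7.41 (2.77).

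Gpc4, the X-linked neighbour of Gpc3, was the most abundant glypican in all 14 groups and lower with early inhibitor. It had 186 and 179 in untreated MEFs and 126 and 118 in MEFs with p38i. The DMSO arm held 180 and 169, 207 and 186, 167 and 190, and 132 and 128 on days 1, 3, 5 and 7. The pre-p38i arm started at 127 and 138, stood at 154 and 139 on day 3, and fell to 100 and 107 and then 64 and 62. No pre-p38i library reached the DMSO libraries of its day. The p38i arm went from 124 and 135 through 149 and 144 to 177 and 165 on day 5 and 140 and 171 on day 7, below DMSO on days 1 and 3, overlapping it on day 5 and above it on day 7. MEF p38i over MEF was a ratio of 0.668, the opposite direction to Gpc3.

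Gpc1 was high in MEFs and declined in every arm. Its values were 114 and 109 in untreated MEFs, 90 and 88 in MEFs with p38i, and then 74 and 65, 48 and 37, 35 and 42, and 29 and 30 in DMSO. The pre-p38i libraries were lower than DMSO on every day, with 46 and 48, 28 and 27, 23 and 20, and 19 and 17. The p38i libraries had 58 and 55, 40 and 36, 35 and 29, and 30 and 29, and both arms had a mean of 29.5 on day 7.

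Gpc2 ran the other way, low in MEFs and higher in induction. It had 5 and 7 in untreated MEFs and 7 and 8 with p38i. In DMSO it had 20 and 18, 22 and 25, 30 and 27, and 21 and 21, and in pre-p38i 22 and 24, 30 and 35, 29 and 33, and 21 and 19. Every p38i library was below the DMSO libraries of its day, at 14 and 10, 19 and 14, 13 and 13, and 12 and 14.

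Gpc6 stayed within a narrow band of 13 to 32. It had 18 and 18 in MEFs, 21 and 20 with p38i, and 19 and 17, 24 and 21, 27 and 32, and 22 and 23 in DMSO. The p38i arm rose from 13 and 14 to 17 and 18, 26 and 25, and 27 and 28. The pre-p38i arm held 21 and 25, 25 and 22, 23 and 23, and 17 and 17, so the 2 inhibitor arms lay on opposite sides of DMSO on days 1 and 7.

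Among the syndecans, Sdc2 became the most abundant of all 9 genes once induction started. It had 90 and 86 in untreated MEFs and 126 and 118 with p38i, then 291 and 282, 330 and 329, 258 and 271, and 187 and 193 in DMSO. The pre-p38i arm had the highest pair, 378 and 369 on day 1, followed by 335 and 322, 229 and 225, and 128 and 123. The p38i arm had 242 and 237, 305 and 309, 294 and 284, and 237 and 257. The order of the arms thus turned around between day 1, when pre-p38i was highest and p38i lowest, and day 7, when p38i was highest and pre-p38i lowest, with no overlap on either day.

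Sdc3 fell most steeply. Its values were 156 and 142 in MEFs, 114 and 119 with p38i, and 79 and 72, 29 and 33, 24 and 26, and 11 and 13 in DMSO. The pre-p38i arm fell further, through 46 and 51, 19 and 20, and 11 and 10 to 6 and 3. The p38i arm had 63 and 65, 25 and 30, 27 and 24, and 19 and 18, overlapping DMSO on days 3 and 5 and above it on day 7.

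Sdc4 was the syndecan that stood lower than DMSO late in both inhibitor arms. It had 105 and 108 in MEFs, 128 and 132 with p38i, and 72 and 68, 64 and 63, 78 and 86, and 84 and 84 in DMSO. The p38i libraries had 60 and 60, 47 and 48, 47 and 48, and 58 and 58. The pre-p38i libraries had 57 and 57, 58 and 63, 66 and 63, and 64 and 61, and overlapped DMSO on day 3 only.

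Sdc1 varied least, 1.68-fold between its highest and lowest group. It had 134 and 125 in MEFs, 129 and 132 with p38i, and 135 and 134, 123 and 113, 93 and 106, and 88 and 90 in DMSO. The p38i arm held 114 and 116, 113 and 113, 109 and 99, and 107 and 108. The pre-p38i arm held 127 and 121, 94 and 105, 96 and 100, and 82 and 78.

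**Figure D1:**
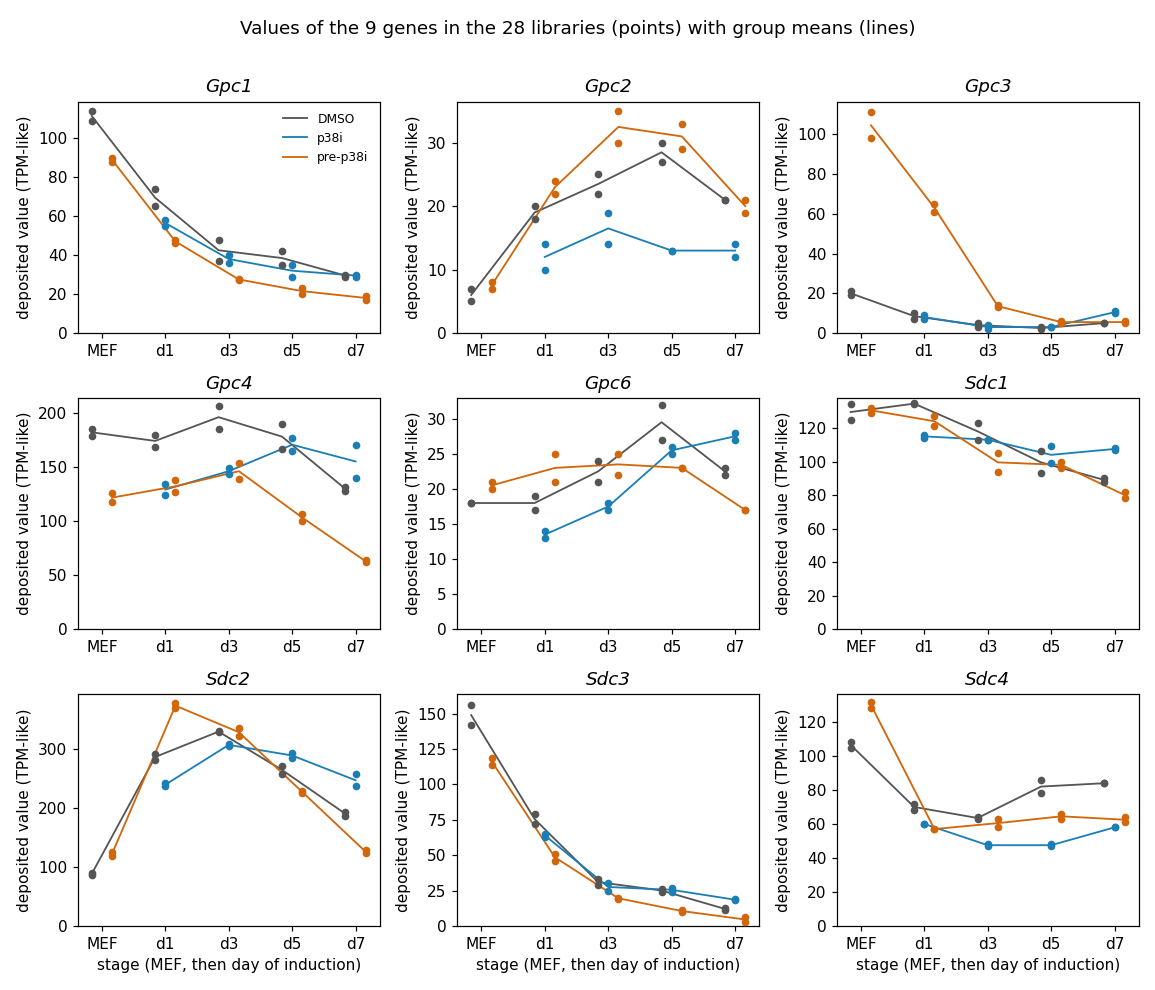
Deposited value (y axis, TPM-like, from 0) of each gene in each library (points) against stage (x axis: MEF, then days 1 to 7 of induction); lines join group means, the orange line starts at MEFs with p38i and the blue line at day 1. Gpc3 stood at 98 to 111 in MEFs with p38i and 61 to 65 in pre-p38i on day 1, against 21 or less in the untreated and DMSO libraries, while Gpc1 and Sdc3 were lower on day 7 than on day 1 in all arms.

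The course of the control induction was tested first. All 9 genes passed the filter on low values (13230 genes with an average value of 1 or more), and the test was limma on log2(value + 1) with the 14 groups in one model and Benjamini-Hochberg adjustment over all genes tested. The labels do not say that the 2 libraries of a group came from separate cultures, so p-values measure the spread between these libraries only. An exact two-sided permutation test of 2 against 2 cannot give less than 0.333. Of 116 member differences called over the 19 comparisons, 46 were lost when only the groups compared were fitted, which leaves fewer libraries to estimate the spread. The 116 include Gpc3 calls that start from its known early excess in pre-p38i. Comparisons of induced cells with MEFs, and some others named below, moved by over 0.1 in their all-gene median under quantile normalization. Their differences are therefore given relative to that median. Only the difference is shifted: the standard error and adjusted p beside it belong to the unshifted difference, which was tested against no change. The median was 0.20 for DMSO day 7 against MEF and −0.064 after quantile normalization.

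Between MEFs and day 7 of DMSO, Gpc2, Gpc6 and Sdc2 rose and the other 6 members fell (background: 43% of genes tested were called higher and 23.8% lower). Relative to the median, Sdc3 fell by 3.74 ± 0.17 (SE, adjusted p = 1.98e-13), Gpc1 fell by 2.09 ± 0.11 (1.22e-11) and Gpc3 fell by 2.01 ± 0.22 (5.12e-07). Gpc2 was up by 1.46 ± 0.16 (1.60e-08) and Sdc2 by 0.90 ± 0.046 (3.45e-14). Sdc1, Gpc4 and Sdc4 changed less, by −0.74, −0.69 and −0.54. The rise of Gpc6 was 0.10 relative to the median and its call was lost under quantile normalization (adjusted p = 1) and without the second DMSO day 7 library (0.0646).

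On day 1 against MEFs, Sdc2 was up by 1.55 ± 0.046 (adjusted p = 7.77e-17) and Gpc2 by 1.39 ± 0.16 relative to the median of 0.14, while Gpc3 (−1.30), Sdc3 (−1.11), Gpc1 (−0.82) and Sdc4 (−0.74) fell (background 36.6% higher, 18.9% lower). From day 1 to day 3 Gpc6 and Sdc2 rose and Gpc1, Gpc3, Sdc1, Sdc3 and Sdc4 fell (20.5% and 24%), led by Sdc3 at −1.26 ± 0.17. From day 3 to day 5 Gpc6 and Sdc4 rose and Sdc1 and Sdc2 fell (13.8% and 5.57%). From day 5 to day 7 Gpc3 rose by 0.79 ± 0.22 from its lowest level, and Gpc1, Gpc4, Gpc6, Sdc2 and Sdc3 fell (10.3% and 16.4%). Sdc3 fell by 1.00 ± 0.17 in that step. The day 7 rise of Gpc3 was a step from 3 and 2 to 5 and 5 and was lost without the second day 5 library (adjusted p = 0.149) or without the first or second day 7 library (0.0596 and 0.0553). Single libraries also decided other calls of these steps. From day 1 to day 3, Gpc3 was lost without the second day 3 library (0.0506), Gpc6 without the second day 1 or first day 3 library (0.149 and 0.176), Sdc1 without the first or second day 1 library or the second day 3 library (0.0953, 0.0771 and 0.219) and Sdc4 without the first day 1 library or the first or second day 3 library (0.276, 0.0983 and 0.154). Quantile normalization also ended the calls of Sdc1 (0.108) and Sdc4 (0.0615) there. From day 3 to day 5, Gpc6 was lost without the second day 3 or second day 5 library (0.125 and 0.171) and Sdc1 without the first day 3 or first day 5 library (0.148 and 0.176). From day 5 to day 7, Gpc1 was lost without the second day 5 library or the first or second day 7 library (0.250, 0.112 and 0.0655) and Gpc6 without the second day 5 or first day 7 library (0.148 and 0.0702).

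The p38i arm asks what inhibitor during induction does at matched days. On day 1 no member was called higher and 6 were lower than DMSO, Gpc2, Gpc4, Gpc6, Sdc1, Sdc2 and Sdc4 (background 3.47% higher, 12.6% lower). The differences ran from −0.64 ± 0.16 for Gpc2 to −0.22 ± 0.055 for Sdc4, with −0.43 ± 0.086 for Gpc4 (adjusted p = 0.00159) and −0.26 ± 0.046 for Sdc2 (0.000623). The all-gene median was −0.085 on that day. Relative to it Gpc2 was at −0.55, Gpc4 at −0.34, Sdc2 at −0.17 and Sdc4 at −0.13. Gpc1, Gpc3 and Sdc3 had differences of −0.29, −0.069 and −0.23 that did not pass (0.0933, 0.906 and 0.385). Without the first DMSO library the calls of Gpc2 (0.0914), Gpc6 (0.128), Sdc1 (0.122) and Sdc4 (0.116) were lost. Those of Gpc6, Sdc1 and Sdc4 were also lost without the first p38i library (0.0911, 0.123 and 0.0510), those of Gpc2, Sdc1 and Sdc4 without the second (0.172, 0.0842 and 0.0538), and that of Sdc1 without the second DMSO library (0.0808). Quantile normalization ended those of Gpc6 (0.0768) and Sdc1 (0.0705). Sums of fibroblast markers were 2590 and 2594 in p38i and 3967 and 3734 in DMSO on that day. In the fibroblast list Twist1 and Thy1 overlapped DMSO and the other genes were lower. Macrophage sums were 167 and 180 against 238 and 232, although Cd68 alone of that list was higher in p38i (58 and 68 against 37 and 32). Epithelial sums were 12 and 14 against 23 and 25. The part of these sums in the differences was not tested.

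On day 3, 4 members were lower and none higher (background 16.2% and 5.22%). Relative to a median of −0.076, Gpc2 was at −0.42 ± 0.16, Gpc4 at −0.34 ± 0.086, Gpc6 at −0.27 ± 0.099 and Sdc4 at −0.34 ± 0.055 (adjusted p = 0.0316, 0.00136, 0.0173 and 1.62e-05). Quantile normalization ended the calls of Gpc2 (0.0972) and Gpc6 (0.0967). Gpc2 was also lost without the first or second DMSO library (0.0563 and 0.182) or the second p38i library (0.325), and Gpc6 without the first DMSO or p38i library (0.178 and 0.112). On day 5, Gpc2 fell by 1.00 ± 0.16 relative to the median (5.18e-05), a ratio of means of 0.456, and Sdc4 by 0.70 ± 0.055 (4.48e-09), a ratio of 0.579 (background 18.7% lower). Sdc2 was called higher, where 7.87% of genes were, at 0.20 relative to the median. The tested difference of Sdc2 was 0.13 ± 0.046 (0.0478). That call was lost without the first DMSO library or the first or second p38i library, with differences of 0.092, 0.10 and 0.15. Fibroblast sums in p38i were 1945 and 1884 on day 3 and 1684 and 1656 on day 5, below 3776 and 3444 and then 2164 and 2464 in DMSO. In the fibroblast list Twist1 overlapped DMSO on day 3 and was higher in p38i on day 5 (161 and 153 against 141 and 128). Thy1 overlapped DMSO on day 5, and the other genes of that list were lower on both days. Macrophage sums were 243 and 226 and then 201 and 220, below 399 and 415 and then 405 and 398. Cd68 alone of that list was higher in p38i on day 5 (60 and 67 against 44 and 51). Epithelial sums were 27 and 22 and then 79 and 76, below 67 and 64 and then 145 and 135. Their part in the differences was not tested.

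By day 7 the p38i arm stood above DMSO for 6 members, Gpc3, Gpc4, Gpc6, Sdc1, Sdc2 and Sdc3, and below it for Gpc2 and Sdc4 (background 16.5% higher, 17.6% lower). The median difference of the 9 members was 0.27, beside 0 over all genes tested. Gpc3 rose by 0.94 ± 0.22 (adjusted p = 0.00267), a ratio of 2.10, and Sdc3 by 0.59 ± 0.17 (0.00931), a ratio of 1.54. Sdc2 rose by 0.38 ± 0.046 (3.80e-06), Sdc1 by 0.27 ± 0.066 (0.00357), Gpc6 by 0.28 ± 0.099 (0.0360) and Gpc4 by 0.25 ± 0.086 (0.0299). Sdc4 fell by 0.53 ± 0.055 (4.88e-07) and Gpc2 fell by 0.66 ± 0.16 (0.00351). Gpc1 had the same mean in both arms. The calls of Gpc2, Gpc3, Sdc1, Sdc2 and Sdc4 held when any 1 library was left out. Gpc4 was lost without the first or second DMSO library (0.0752 and 0.134) or the second p38i library (0.435), Gpc6 without any 1 of the 4 (0.0780 to 0.165), and Sdc3 without the first DMSO or first p38i library (0.0978 and 0.0580). Sums of epithelial markers were 224 and 204 in p38i and 509 and 477 in DMSO on day 7. The fibroblast sums were within 1387 to 1505 in both. Of that list, Twist1 (155 and 161 against 94 and 102), Thy1 (30 and 32 against 17 and 21) and Col1a2 were higher in p38i. Col1a1, Col3a1 and Prrx1 were lower, and Pdgfra and Pdgfrb overlapped DMSO. The part of these markers was not tested.

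The change of the p38i difference between day 1 and day 7 was tested itself. It was positive for Gpc3, Gpc4, Gpc6, Sdc1, Sdc2 and Sdc3 and negative for Sdc4 (background 14.1% higher, 7.55% lower). The change was 1.01 ± 0.31 for Gpc3 (adjusted p = 0.0267), 0.82 ± 0.23 for Sdc3 (0.0160), 0.68 ± 0.12 for Gpc4 (0.000502) and 0.63 ± 0.065 for Sdc2 (1.52e-06). For Gpc2, which was lower on all 4 days, it was −0.019 ± 0.23 (0.972). The Gpc3 change uses the DMSO libraries of day 1, part of a comparison in which Gpc3 had already been seen. Its p is therefore not free of that selection. The call of Gpc3 was lost without the first DMSO or first p38i library of day 1 (0.137 and 0.111), either DMSO library of day 7 (0.0659 and 0.0627) or the first p38i library of day 7 (0.0775), and that of Sdc3 without the first DMSO library of day 1 or of day 7 (0.0639 and 0.0745).

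The pre-p38i arm asks what inhibitor before induction leaves behind. On day 3, Gpc3 was higher than DMSO and Gpc1, Gpc4, Sdc1 and Sdc3 were lower (background 13.8% higher, 6.87% lower). Gpc3 differed by 1.56 ± 0.22 (adjusted p = 5.36e-05), a ratio of 3.38 and part of the pattern already known from day 1. Sdc3 fell by 0.64 ± 0.17 (0.00922), Gpc1 by 0.60 ± 0.11 (0.000899) and Gpc4 by 0.42 ± 0.086 (0.00156). Sdc1 fell by 0.24 ± 0.066 (0.0123). Sdc1 was lost without the first DMSO or first pre-p38i library (0.142 and 0.182), and Sdc3 without the second DMSO or first pre-p38i library (0.0805 and 0.0675). On that day fibroblast sums were 2535 and 2620 in pre-p38i against 3776 and 3444 in DMSO, with Prrx1 and Pdgfrb of that list overlapping. Macrophage sums were 167 and 153 against 399 and 415, and epithelial sums 127 and 129 against 67 and 64. The part of these sums was not tested.

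On day 5, Gpc3 was still higher, by 0.90 ± 0.22 (adjusted p = 0.00487), again part of the pattern known from day 1. The 6 members Gpc1, Gpc4, Gpc6, Sdc2, Sdc3 and Sdc4 were lower (background 14.3% higher and 11.3% lower). Sdc3 fell by 1.18 ± 0.17 (2.66e-05), Gpc1 by 0.81 ± 0.11 (2.72e-05) and Gpc4 by 0.78 ± 0.086 (1.49e-06). Gpc3 was lost without the second DMSO or second pre-p38i library (0.0774 and 0.0539). Gpc6 was lost without the second DMSO library or the first or second pre-p38i library (0.199, 0.0683 and 0.0692). Fibroblast sums were 1574 and 1454 in pre-p38i against 2164 and 2464 in DMSO, with Prrx1 and Pdgfrb of that list overlapping. Macrophage sums were 78 and 78 against 405 and 398, and epithelial sums 344 and 325 against 145 and 135. The part of these sums was not tested either.

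On day 7 no member was higher and the same 6 were lower (background 15.4% and 14.5%). Sdc3 fell by 1.29 ± 0.17 (adjusted p = 6.35e-06), a ratio of 0.375, and Gpc4 by 1.03 ± 0.086 (2.19e-08), a ratio of 0.485. Gpc1 fell by 0.68 ± 0.11 (0.000132), Sdc2 by 0.59 ± 0.046 (9.27e-09), Sdc4 by 0.42 ± 0.055 (7.62e-06) and Gpc6 by 0.38 ± 0.099 (0.00616). Gpc6 was lost without the second DMSO library (0.0535). The median of the 9 members was −0.42, beside 0.053 over all genes tested. Gpc3, with 6 and 5 against 5 and 5, differed by 0.11 ± 0.22 (0.750). Fibroblast marker sums were lower in pre-p38i (864 and 806) than in DMSO (1387 and 1475), epithelial sums were higher (940 and 979 against 509 and 477) and macrophage sums were lower (43 and 33 against 187 and 197), and their part in these differences was not tested.

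The change of the pre-p38i difference from day 3 to day 7 was called negative for Gpc4, Sdc2 and Sdc4 and called positive for none (background 6.66% lower, 1.51% higher). It was −0.61 ± 0.12 for Gpc4 (adjusted p = 0.00269), −0.59 ± 0.065 for Sdc2 (6.84e-06) and −0.35 ± 0.077 for Sdc4 (0.00629). For Gpc3 the change was −1.45 ± 0.31, starting from the early excess on which it was selected, so no p is given. For Gpc1, lower on all 3 days tested, it was −0.086 ± 0.16 (0.844).

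**Figure D2:**
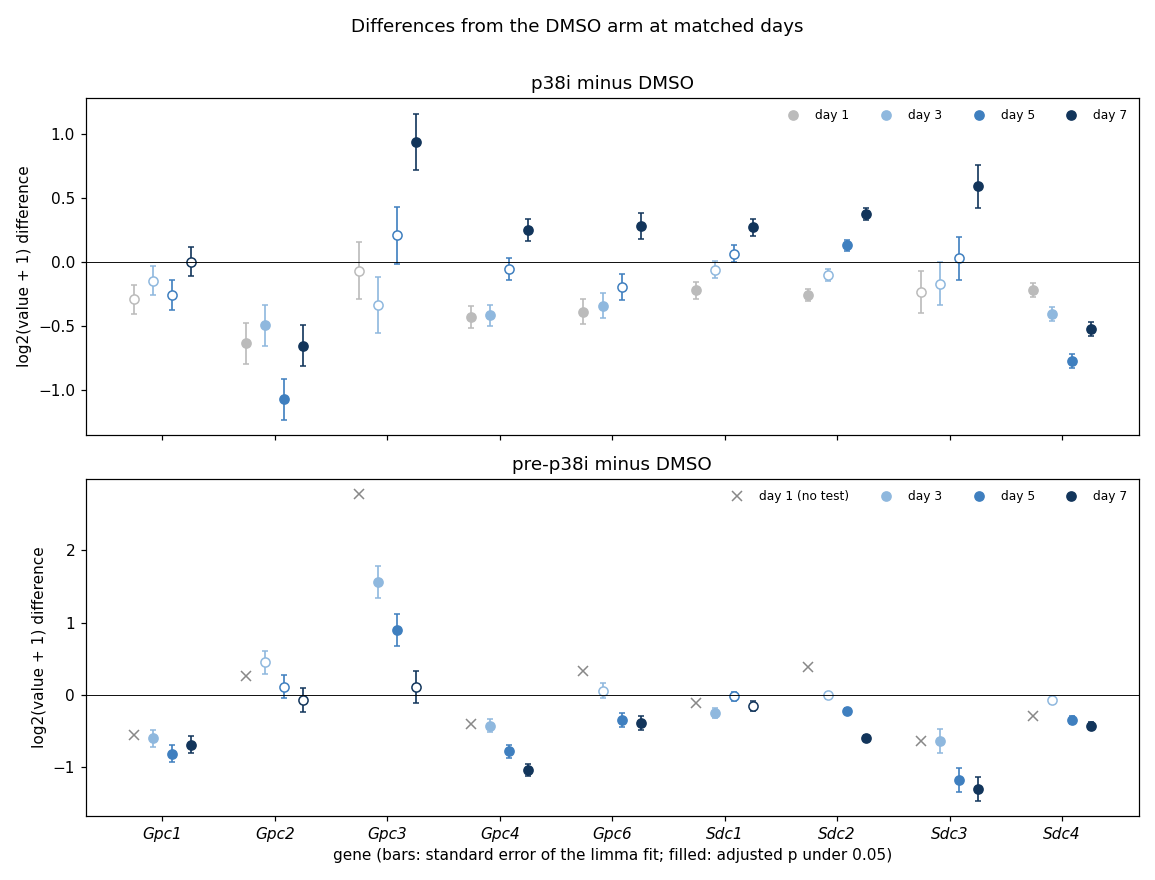
Log2(value + 1) difference from DMSO at matched days (y axis) for each gene (x axis), p38i above and pre-p38i below; bars are standard errors of the limma fit, filled circles passed an adjusted p of 0.05, open circles did not, and crosses (pre-p38i, day 1) were not tested. In p38i, 6 members moved from below or near DMSO on day 1 to above it on day 7, whereas in pre-p38i Gpc3 came down to the DMSO level from above and Gpc4 and Sdc2 moved down relative to DMSO after day 3.

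On day 1 of the pre-p38i arm, which was not tested, 4 members were higher than both DMSO libraries (Gpc2, Gpc3, Gpc6 and Sdc2) and 5 lower (Gpc1, Gpc4, Sdc1, Sdc3 and Sdc4). Of all 13230 genes tested elsewhere, 21.7% had both libraries higher and 20.1% both lower in that comparison. The fibroblast sums were 2686 and 2816 in pre-p38i against 3967 and 3734 in DMSO, and the macrophage sums were 82 and 76 against 238 and 232. In the fibroblast list Col1a1, Col1a2, Thy1 and Pdgfrb were lower in pre-p38i. Twist1 was higher (191 and 199 against 189 and 179), and Col3a1, Prrx1 and Pdgfra overlapped. In MEFs with p38i, 4 were higher than in untreated MEFs (Gpc3, Gpc6, Sdc2 and Sdc4), 3 lower (Gpc1, Gpc4 and Sdc3) and 2 overlapped (Gpc2 and Sdc1), where 25.4% of the same genes were higher and 20.5% lower without overlap. The fibroblast sums were 4439 and 4442 with p38i against 7684 and 7474 without, and the macrophage sums were 190 and 184 against 273 and 266. In the fibroblast list the collagens, Thy1 and Pdgfrb were lower with p38i. Twist1 (91 and 96 against 74 and 74) and Prrx1 were higher, and Pdgfra overlapped. The part of these sums in both sets of differences was not tested. Beside Gpc3, the ratios of means in MEFs ran from 0.668 for Gpc4 to 1.39 for Sdc2. Gpc3, Gpc6 and Sdc2 were above and Gpc1, Gpc4 and Sdc3 below the untreated or DMSO libraries in both places, and Sdc4 was above in MEFs and below on day 1. From MEFs with p38i to pre-p38i day 1, Gpc3 went from a mean of 104.5 to 63, a ratio of 0.603, and Sdc2 from 122 to 373.5, a ratio of 3.06.

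Set against each other, the 2 inhibitor arms differed for 7 members on day 3. Relative to a median of −0.16, p38i was higher than pre-p38i for Gpc1 (0.61), Sdc3 (0.63) and Sdc1 (0.34) and lower for Gpc3 (−1.74), Gpc2 (−0.79), Gpc6 (−0.24) and Sdc4 (−0.18), where 10.7% of genes were called higher and 31.4% lower. Quantile normalization ended the call of Gpc6 (adjusted p = 0.0982). Gpc6 and Sdc1 were also lost without the first pre-p38i library (0.0531 and 0.325), Sdc1 without the first or second p38i library (0.0996 and 0.0973), and Sdc3 without the second p38i library or the first or second pre-p38i library (0.206, 0.121 and 0.0692) and with a pseudocount of 0.1 (0.0541). On day 5, relative to a median of −0.12, Sdc3 (1.32), Gpc4 (0.84), Gpc1 (0.67) and Sdc2 (0.47) were higher in p38i and Gpc2 (−1.07), Gpc3 (−0.58) and Sdc4 (−0.31) lower (16.3% and 31.1%). Gpc3 was lost under quantile normalization (0.167) and without the first or second p38i library or the second pre-p38i library (0.0552, 0.0553 and 0.101). The Gpc3 differences of both days were part of the pattern already known from day 1 of pre-p38i. Epithelial sums were 27 and 22 in p38i against 127 and 129 in pre-p38i on day 3 and 79 and 76 against 344 and 325 on day 5, and their part was not tested.

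On day 7, p38i exceeded pre-p38i for 7 members and was lower for Gpc2 alone (background 24.8% higher, 29.5% lower). The difference was 1.88 ± 0.17 for Sdc3 (adjusted p = 1.15e-08), a ratio of 4.11, and 1.28 ± 0.086 for Gpc4 (2.18e-10), a ratio of 2.47. Sdc2 differed by 0.97 ± 0.046 (1.84e-12), Gpc3 by 0.83 ± 0.22 (0.00379), Gpc1 by 0.68 ± 0.11 (4.35e-05), Gpc6 by 0.66 ± 0.099 (1.29e-05) and Sdc1 by 0.42 ± 0.066 (2.19e-05). Gpc2 differed by −0.59 ± 0.16 (0.00438), a call lost without the first p38i library (0.0519). Sdc4, lower than DMSO in both arms, differed between them by −0.11 ± 0.055 (0.112). These comparisons share their libraries with those against DMSO. The fibroblast sums of day 7 differed in the same order, at 1451 and 1505 in p38i and 864 and 806 in pre-p38i. So did the macrophage sums, at 210 and 183 against 43 and 33, while the epithelial sums ran the other way, at 224 and 204 against 940 and 979. The part of these sums was not tested.

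Within the arms, from day 1 to day 7 and relative to medians of 0.091 and 0.10, p38i showed higher Gpc6 (0.88 ± 0.099, adjusted p = 7.68e-08) and Gpc4 (0.17) and lower Sdc3 (−1.83 ± 0.17) and Gpc1 (−1.01 ± 0.11), with 32.8% of genes higher and 22% lower. The rise of Gpc4 was lost without the first day 1 or second day 7 library (0.138 and 0.327). In pre-p38i, Gpc1, Gpc4, Gpc6, Sdc1, Sdc2 and Sdc3 fell and Sdc4 was called higher at 0.027 relative to the median (background 36.1% higher, 27.5% lower). Sdc3 fell by 3.33 ± 0.17, Sdc2 by 1.67 ± 0.046, Gpc1 by 1.44 ± 0.11 and Gpc4 by 1.16 ± 0.086. Gpc3 went from 61 and 65 to 6 and 5, a ratio of 0.0873, but its day 1 value is one it was selected on. It is therefore not counted among the members that fell. The call of Sdc4 was lost under quantile normalization (0.0872) and without the first or second day 1 library or the first day 7 library (0.115, 0.116 and 0.230).

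Summed over the 9 genes, the values were 811 in untreated MEFs and 842.5 with p38i (group means). The DMSO sum went from 856 on day 1 to 583 on day 7, that of pre-p38i from 891.5 to 396, and that of p38i only from 698 to 667. Glypicans made up 41.7% of the sum in MEFs and between 30.9% and 37.1% in every induced group, so the syndecans held the larger part throughout. The leading gene changed with induction. Gpc4 led in untreated MEFs with 22.5%, Sdc1 (15.5%) and Sdc4 (15.4%) stood level in MEFs with p38i, and Sdc2 led in all 12 induced groups with 31.7% to 43.7%. Gpc3 made up 2.46% of the sum in untreated MEFs, 12.4% in MEFs with p38i and 7.07% in pre-p38i on day 1. Sdc3 went from 18.4% in MEFs to 2.06% in DMSO, 2.78% in p38i and 1.13% in pre-p38i on day 7.

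**Figure D3:**
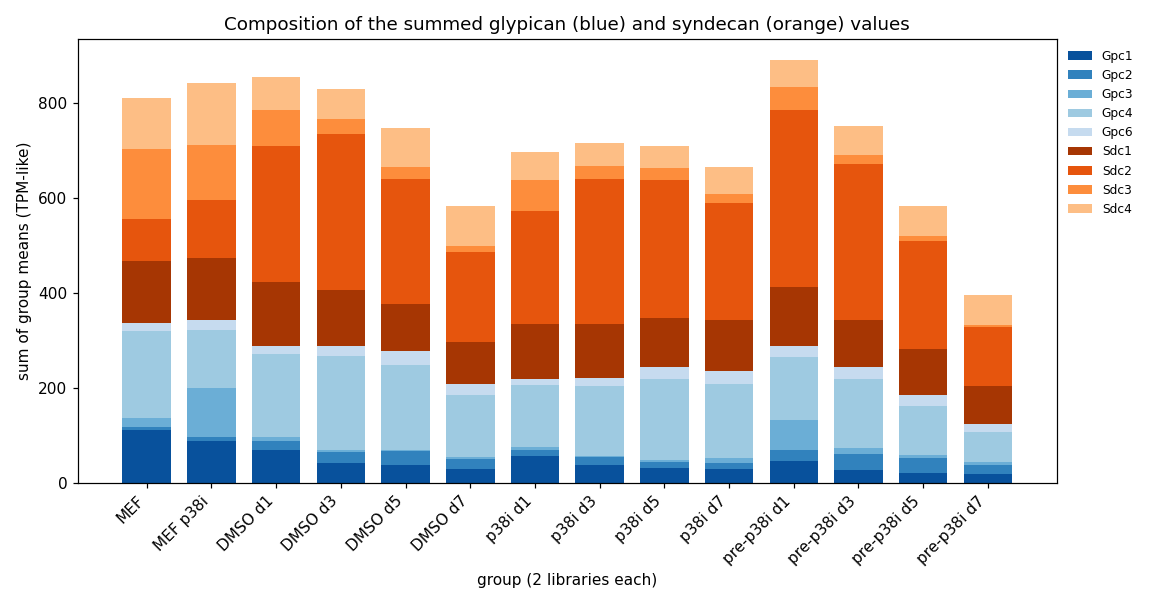
Stacked group means of the 9 genes (y axis, TPM-like, from 0) for the 14 groups of 2 libraries (x axis), glypicans in blues and syndecans in oranges. The pre-p38i stack fell from 891.5 on day 1 to 396 on day 7 while the p38i stack stayed between 667 and 716.5, and Sdc2 was the largest block in all 12 induced groups.

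Ordered by group mean, several levels could not be separated beyond the spread of their libraries. Of the 13 pairs of neighbouring groups, the 2 libraries overlapped in 10 for Gpc4, 9 for Gpc2 and Gpc6, 8 for Gpc3 and Sdc1, 6 for Sdc4, 5 for Gpc1 and Sdc3 and 4 for Sdc2. The top of the order was clear for Gpc3 (MEF p38i above pre-p38i day 1 above MEF) and for Gpc1 and Sdc3 (MEF, MEF p38i, DMSO day 1, p38i day 1, pre-p38i day 1). For Gpc4 it was not: DMSO day 3, MEF, DMSO day 5 and DMSO day 1 each overlapped the next. For Sdc4, MEF p38i lay above MEF and MEF above DMSO day 7, and the lowest level, 47.5, was shared by p38i days 3 and 5.

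The members whose patterns were most alike over the 14 group means of log2(value + 1) were Gpc1 and Sdc3 (Pearson r = 0.977) and Sdc1 and Sdc3 (0.926), and the least alike were Sdc2 and Sdc4 (−0.719) and Gpc1 and Gpc2 (−0.696). The X-linked neighbours Gpc3 and Gpc4 had r = −0.107. Of all tested genes with a mean of at least 5, those most like Gpc3 were Fbn2 (0.925), Fgfr2 (0.924) and Bckdk (0.912). Most like Gpc1 were H13 (0.985), Col5a2 (0.983) and Serpinf1 (0.983), like Gpc2 N4bp1 (0.962), Akr1c18 (0.960) and Dmkn (0.959), like Gpc4 Flrt2 (0.952), Palld (0.939) and Arhgap24 (0.938), and like Gpc6 Hoxa4 (0.851), Dusp6 (0.849) and Adgrl2 (0.845). For the syndecans they were Mecom (0.965), Rftn2 (0.958) and Ikbip (0.957) with Sdc1, Apba1 (0.990), Lxn (0.986) and Fchsd2 (0.982) with Sdc2, Ehd2 (0.992), Itpripl2 (0.991) and Mfn2 (0.991) with Sdc3, and Id1 (0.935), Smad6 (0.911) and Trib1 (0.910) with Sdc4. The 14 points share libraries between genes, and no p is given.

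The genes that make, trim and use the heparan sulfate chains were counted on day 7, with differences given on the log2(value + 1) scale and not relative to the all-gene median. The background to the counts that follow was the same: 16.5% of all genes tested were called higher and 17.6% lower in p38i against DMSO, 15.4% and 14.5% in pre-p38i against DMSO, and 43% and 23.8% in DMSO against MEF. Calls of list genes were not checked under the alternative settings or with a library left out. Of 11 genes of chain synthesis 10 were tested. In p38i against DMSO 7 were higher and none lower (list median 0.31, all genes 0), led by Ext1 (0.47) and Extl3 (0.45) of chain polymerisation and initiation and the xylosyltransferase Xylt2 (0.40). In pre-p38i against DMSO none was higher and 2 were lower, Extl2 (−0.29) and Ext2 (−0.17), with a median of −0.12 beside 0.053. In DMSO against MEF, 1 was higher, Extl2 (0.77), and 3 were lower, Ext1 (−0.62), Xylt2 (−0.61) and B4galt7 (−0.36).

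Of 19 chain-modifying genes 12 were tested. In p38i 5 were higher (background 16.5%), among them the 6-O-sulfotransferase Hs6st2 (0.34), the N-sulfotransferase Ndst1 (0.28) and the 6-O-endosulfatase Sulf2 (0.23), and 1 was lower, Hs6st1 (−0.53). In pre-p38i the 2 Hs6st genes stood the other way, with Hs6st1 higher (0.78) and Hs6st2 lower (−1.16). The heparanase Hpse was also higher (0.94), and Hs3st1 (−0.84) and Sulf2 (−0.17) were lower. From MEF to day 7 of DMSO 8 of the 12 were higher (background 43%), led by the 3-O-sulfotransferases Hs3st3b1 (3.51), Hs3st3a1 (3.25) and Hs3st1 (2.50, from 1 and 0 to 7 and 7). The 3 that were lower (23.8%) were Hs6st2 (−0.84), Glce (−0.32) and Hs2st1 (−0.22). The list medians were 0.19, −0.0098 and 1.01.

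Of 9 genes for shedding or release 8 were tested. Notum was put in this list for a proposed action on glypican anchors, and RNA values cannot show release of glypicans. Notum had 93 and 86 in DMSO on day 7 and was listed at 0 in both MEF libraries. It was lower in p38i (48 and 52, difference −0.83) and higher in pre-p38i (148 and 173, 0.83). In p38i, 2 of the 8 were higher (background 16.5%), Mmp14 (0.30) and Adam17 (0.19), and 2 lower (17.6%), Notum and Mmp2 (−0.31). In pre-p38i, Mmp2 (−1.09), Furin (−0.51) and Mmp14 (−0.27) were lower. From MEF to DMSO day 7, Gpld1 (1.17) and Adam17 (0.60) rose with 1 other gene beside Notum. Mmp9 (−2.06, from 4 and 6 to 0 and 1), Mmp14 (−1.22) and Furin (−1.06) fell. The medians were −0.066, −0.29 and 0.18.

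All 7 cytoplasmic partners of syndecans were tested. In p38i 4 were higher (background 16.5%), including Prkca (0.70, 6 and 5 against 3 and 3), Actn1 (0.62) and the PDZ protein syntenin, Sdcbp (0.50). Tiam1 was lower (−0.58). In pre-p38i none was higher and 4 were lower (background 14.5%), including Actn1 (−0.62), Cask (−0.48) and Actn4 (−0.38). From MEF to DMSO day 7, Tiam1 (1.05) and Sdcbp (0.20) were called higher, Sdcbp at no more than the all-gene median of 0.20. The 4 that fell were led by Actn1 (−4.41, from 1224 and 1124 to 50 and 59), Prkca (−3.09) and Cask (−0.74). The medians were 0.31, −0.35 and −0.52.

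Of the 7 other proteoglycans with heparan sulfate 6 were tested, all but Gpc5. In p38i, Nrp1 (0.63), Tgfbr3 (0.58, 3 and 4 against 2 and 2), Agrn (0.36) and 1 more were higher (background 16.5%). Cd44 (−0.26) and Col18a1 (−0.26) were lower. In pre-p38i, Agrn was higher (0.21) and 5 were lower (background 14.5%), including Nrp1 (−1.01) and Col18a1 (−0.70), with Tgfbr3 listed at 0 in both libraries against 2 and 2. From MEF to DMSO day 7, Agrn (2.15) and Col18a1 (1.17) rose and 4 fell, led by Nrp1 (−3.50), Tgfbr3 (−1.22) and perlecan, Hspg2 (−0.85). The medians were 0.32, −0.67 and −0.79.

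Of 16 ligands and receptors 10 were tested. In p38i 6 were higher (background 16.5%) and none lower, led by Met (0.95), Igf2 (0.92, 300 and 307 against 156 and 163) and Vegfa (0.50). In pre-p38i, Fgfr2 (0.60) and Met (0.44) were higher and 4 were lower, among them Igf2 (−0.57), Wnt5a (−0.28) and Fgf7, which was listed at 0 in both libraries against 1 and 1. From MEF to DMSO day 7, Ptch1 (1.42) and Fgfr1 (0.27) were called higher, Fgfr1 near the all-gene median of 0.20. The 7 that fell (background 23.8%) were led by Fgf7 (−4.91), Igf2 (−3.52) and Vegfa (−3.33). The medians were 0.35, −0.066 and −1.24, beside all-gene medians of 0, 0.053 and 0.20.

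**Figure D4:**
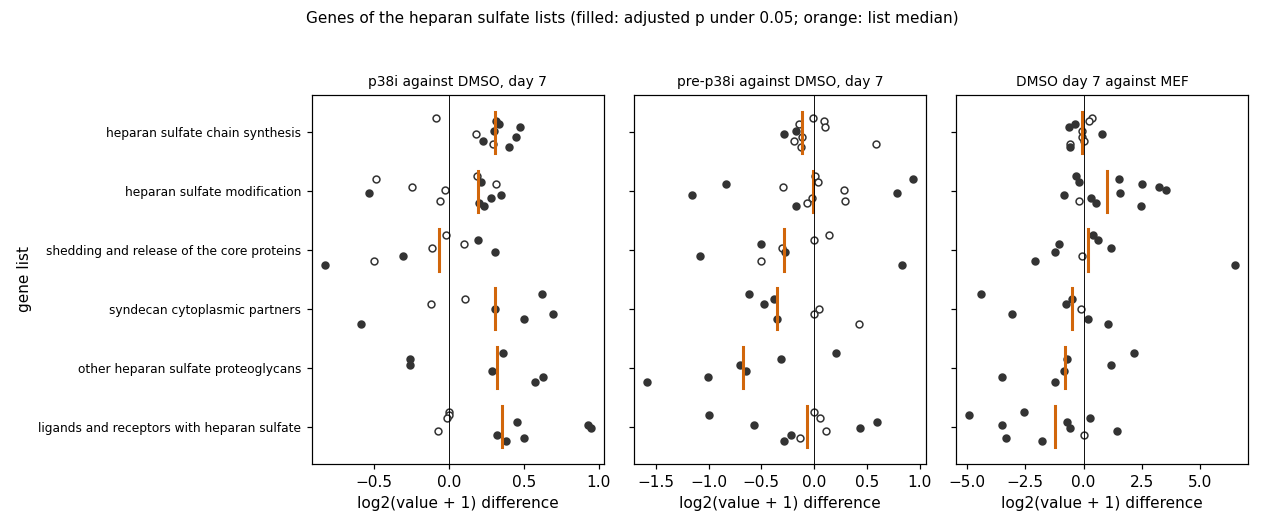
Log2(value + 1) difference (x axis) of each tested gene of the 6 lists (y axis) on day 7 in p38i and pre-p38i against DMSO and in DMSO against MEF; filled points passed an adjusted p of 0.05 and orange bars are list medians. The list medians were positive for 5 of 6 lists in p38i and negative for all 6 in pre-p38i.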

How the data were processed

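Bulk RNA-seq of 28 libraries (14 groups of 2) was analysed. The authors deposited one table whose values are treated here as scores: whole numbers per gene and library that behave like TPM (length-normalised abundance) rounded down, so no raw counts, depth, interval or floor could be given. The tools named in the submitters' processing notes are bcl2fastq, Bowtie2 2.2.5 and RSEM 1.3.0, with the builds hg38 and mm10, whose roles are not stated; the library kit and RNA extraction differ between the labels and the study's methods.

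The genes and lists were chosen with earlier results of these data known. The 13230 of 50600 genes whose values averaged 1 or more were tested with limma 3.58.1 (trend) in R 4.3.3 on log2(value + 1), with Benjamini-Hochberg adjustment over all genes tested and a threshold of 0.05. This scale understates changes of low genes. Simulated data for p38i against DMSO on day 7 (12434 genes) gave calls for 193 of 200 changed genes, with 6.31% of calls unchanged. The changed genes had log2 changes of at least 1 and were drawn from genes above a value of 5. Smaller changes, as in most member calls against DMSO, and lower genes were not simulated. No count model was used, since the deposited values are not counts.

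All 9 members and Gpc5 are named. Per list, up to 3 called genes a direction with the largest differences are named, and per member the 3 genes with the highest r. Promoter windows are RefSeq (GRCm38.p6), annotation is GENCODE M21, and copies were searched with BLAST 2.17.0+. Alternative settings were a filter at an average of 5 or none, a pseudocount of 0.1, quantile normalization, a fit of only the groups compared, a replicate block, a log2 difference of at least 1, and leaving out each library in turn.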

Additional observations from a re-analysis of the deposited data

Results flagged for a closer look

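For 11 differences from DMSO, the change between days passed limma's test of the change, adjusted over all genes tested. That count includes Gpc3 in pre-p38i, which started from its known early excess, so its call gives no support. In p38i, between day 1 and day 7, the log2 difference moved up by 1.01 for Gpc3 (adjusted p = 0.0267), 0.82 for Sdc3 (0.0160), 0.68 for Gpc4 (0.000502), 0.67 for Gpc6 (0.00199), 0.63 for Sdc2 (1.52e-06) and 0.49 for Sdc1 (0.000814), and moved by −0.31 for Sdc4 (0.00734). In pre-p38i, between day 3 and day 7, it moved by −0.61 for Gpc4 (0.00269), −0.59 for Sdc2 (6.84e-06) and −0.35 for Sdc4 (0.00629). For Gpc3 it moved by −1.45, from an early excess already known when the genes were chosen, so no p is given. The Gpc3 change in p38i uses the DMSO libraries of day 1, part of a comparison in which Gpc3 had already been seen. Its p is therefore not free of that selection.

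Gpc3, Gpc4 and Sdc2 changed in opposite directions in the 2 arms, over different spans of days, Gpc3 from its known early excess in pre-p38i. Both comparisons use the DMSO libraries of day 7, so they are not independent. Marker sums differed between the arms on the days compared, and their part in these changes was not tested.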

How the results depend on the processing

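Of 116 called member differences, 63 held under every alternative, 53 were lost under at least 1, none turned direction, and 14 differences were gained under at least 1; 38 signs flipped among values that missed the threshold throughout. These totals include Gpc3 calls that start from its known early excess in pre-p38i. No call was lost with no filter or a minimum mean of 5, 1 with a pseudocount of 0.1, 10 with quantile normalization and 34 without at least 1 library. A fit of only the groups compared lost 46, with fewer libraries to estimate the spread. It called 1 member in p38i against DMSO on days 1 and 3, 0 and 2 in pre-p38i against DMSO on days 3 and 5, 3 in p38i against pre-p38i on day 3, 2, 0 and 2 in the DMSO steps to days 3, 5 and 7, and 2 in the change of the pre-p38i difference. Quantile normalization called 2 in p38i against DMSO on day 3.

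A log2 difference of at least 1 left, for p38i against DMSO, 0, 0, 1 and 0 members on days 1, 3, 5 and 7. For pre-p38i against DMSO it left 1, 1 and 2, and for p38i against pre-p38i 1, 2 and 2, on days 3, 5 and 7. It left 3 for DMSO day 1 against MEF, 1, 0 and 1 for the following DMSO steps and 5 for DMSO day 7 against MEF. From day 1 to day 7 it left 1 for p38i and 5 for pre-p38i, and it left 1 for each change of a difference. Gpc3, selected on its early excess, is among the 5 for pre-p38i and is the 1 left for the change of the pre-p38i difference.

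Leaving out each library gave 2 to 5 called members in p38i against DMSO on day 1, 2 to 4 on day 3 and 5 to 6 on day 7. It gave 3 to 5 in pre-p38i against DMSO on day 3, 4 to 6 in p38i against pre-p38i on day 3, 4 to 5 in DMSO day 3 against day 1 and 3 to 7 in DMSO day 7 against day 5. The lone library left in a group was assumed to vary like the other groups.

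Replicates with the same number did not deviate together (r between −0.0838 and 0.0874 over 91 pairs of groups). A replicate block within time point, which moved no count of called members by over 1.5 times, ended 7 calls: Sdc1 in p38i against DMSO on day 1 (adjusted p = 0.0628), in p38i against pre-p38i on day 3 (0.0665) and in DMSO day 3 against day 1 (0.0575), Sdc2 in p38i on day 5 (0.0635), Gpc6 in p38i on day 7 (0.0610), and Sdc4 in DMSO day 3 against day 1 (0.0781) and in pre-p38i day 7 against day 1 (0.0719). DESeq2 and TMM were not run, as the table holds no counts.

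Values of 2 to 5, as for Gpc3 late in induction, are rounded to whole numbers, so 1 unit is a large step on the log2 scale. The depth behind any value is unknown.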
